A study of Mus musculus with 221 samples.

Results

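Dbi, which encodes the acyl-CoA-binding protein, was followed together with 9 genes for enzymes that activate, import, oxidise or release long-chain fatty acids: Acsbg1, Cpt1a, Acadvl, Acadl, Acadm, Hadha, Hadhb, Acaa2 and Acot13. These 10 genes, of 23244 features measured, were chosen because earlier values of the same cells had shown most of them higher in radial glia than in excitatory neurons or intermediate progenitors. Their levels in radial glia against those 2 kinds of cell are therefore given as a description, with no test. The cells are 221 single-cell transcriptomes from the medial neocortex of untreated C57BL/6J mouse embryos, taken at E18.5 when birth was near. They came from 2 pools of 8 dissociated neocortices each, pool 2 giving 99 of the cells and pool 1 the rest. The names of the cells end in A or B, a suffix that the labels do not explain.

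Fatty acids enter oxidation as thioesters of coenzyme A. Acyl-CoA synthetases make these esters, the acyl-CoA-binding protein carries them in the cytosol, carnitine palmitoyltransferase hands them over to the mitochondrial import system, and a cycle of dehydrogenation, hydration, dehydrogenation and thiolysis then shortens the chain. In the brain this pathway is best known from astrocytes and neural stem cells, whereas neurons rely on it little. The acyl-CoA-binding protein is also called diazepam binding inhibitor, since peptides from it act on GABA-A receptors. Radial glia are the stem cells of the developing cortex, Eomes marks the intermediate progenitors they produce and the youngest neurons, and excitatory neurons and interneurons are the glutamate-releasing and GABA-releasing neurons.

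Levels are in TPM, a unit that brings every cell to the same total and corrects for transcript length, so that genes can be compared with each other. No value is 0: every cell has a lowest value between 1.33 and 2.998 TPM, called the floor, which all transcripts without signal share, and a gene was counted as present in a cell when it lay above that floor. Each cell had between 2146 and 6727 genes above its floor (median 4035), and the number of reads behind each value is unknown. Cells were assigned by marker transcripts to radial glia (at least 5 of 8 markers and no Eomes, 19 cells), Eomes-positive cells (35), interneurons (26) and excitatory neurons (138), while 3 cells entered no class. Radial glia were 8.60% of all cells (exact 95% interval 5.26 to 13.1%, counting error only), 10 from pool 1 and 9 from pool 2. By these gates no excitatory neuron could hold more than 4 radial glia markers, and 16 of the 138 held exactly 4. Median numbers of genes above the floor were 4641 in radial glia, 4246 in Eomes-positive cells, 3438.5 in interneurons and 4034 in excitatory neurons. All samples are labelled female, but 99 cells had 1 or more of 4 Y-linked transcripts above the floor and 70 had Xist, 19 of them with both.

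The gated radial glia were checked against other cell types. All 5 endothelial and all 5 mesenchymal markers lay at the floor in the 19 cells, and 3 of 5 microglial markers were seen, with a summed level of at most 26.8 TPM. Of the neuronal transcripts, Neurod6 was above the floor in 18 of the 19 radial glia (median 215 TPM). Olig1 was present in 9 and Gfap and Gja1 each in 7, and 1 cell held 3 or more oligodendrocyte precursor markers and 1 cell 3 or more astrocyte markers. Without those 2 cells the log2 difference of Dbi between radial glia and excitatory neurons, 4.35 with them, was 4.32, and without the 11 radial glia with 100 TPM or more of Neurod6 it was 5.43.

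Dbi was among the most abundant transcripts of radial glia. All 19 radial glia had it above the floor, with a lowest value of 218 TPM, a median of 11486 and a highest of 35849.6. Ranked by mean level, it stood at place 3 of all features in radial glia, at place 12 in Eomes-positive cells and at place 252 in excitatory neurons. In the 35 Eomes-positive cells Dbi ranged from 4.72 to 13369.5 TPM with a median of 1889, and all 35 cells had it above the floor. In interneurons it was above the floor in 23 of 26 cells, with a lowest value of 1.66 TPM, a median of 568 and a highest of 8093. In excitatory neurons it was above the floor in 131 of 138 cells, with a lowest value of 1.48 TPM, a median of 526 and a highest of 2108. So Dbi was present in nearly every cell, and the classes differed in its amount. The groups overlapped, but 16 of 19 radial glia lay above the highest excitatory neuron, as did 15 of 35 Eomes-positive cells and 4 of 26 interneurons.

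**Figure D1:**
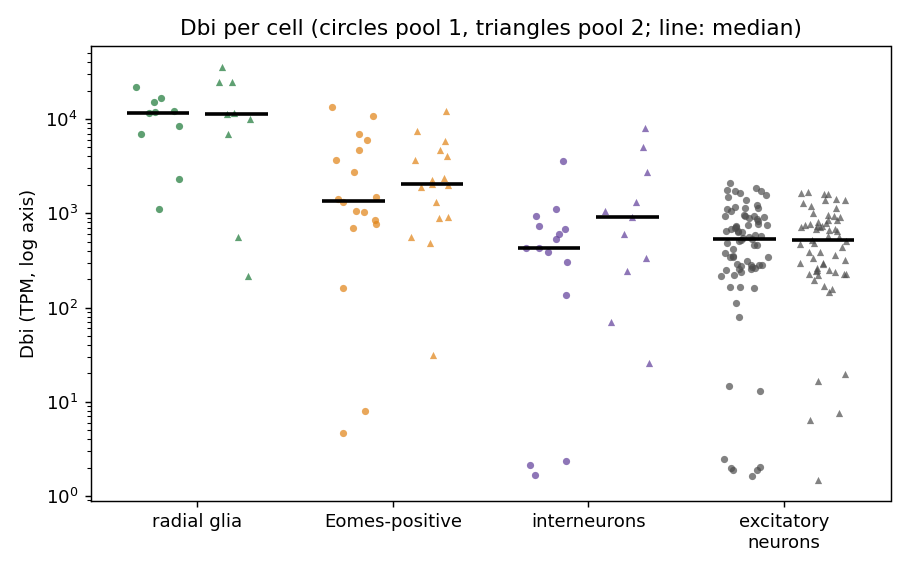
Dbi in each cell (TPM, log axis) by cell class, with circles for pool 1, triangles for pool 2 and a line at the median of each pool. Radial glia have medians of 11625 and 11261 TPM in the 2 pools, against 528 and 516 TPM in excitatory neurons.

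The order of the classes was the same in both pools for radial glia, Eomes-positive cells and excitatory neurons. The medians of Dbi in pool 1 and pool 2 were 11625 and 11261 TPM in radial glia, 1359 and 2064 in Eomes-positive cells and 528 and 516 in excitatory neurons. Interneurons, with medians of 426 and 908 TPM, lay below excitatory neurons in pool 1 and above them in pool 2. On the scale of log2(TPM + 1), averaged over the cells of a class and pool, Dbi in radial glia was higher than in excitatory neurons by 4.35 ± 0.48 (SE from limma, n = 2 pools), with 4.61 in pool 1 and 4.10 in pool 2. Against Eomes-positive cells the difference was 2.43 ± 0.48, with 2.94 and 1.91 in the pools. That value moved with the suffix, being 1.66 within suffix A and 3.77 within suffix B, and with the gate, being 0.68 when radial glia needed 4 of 8 markers. Suffix A holds 14 of the radial glia and suffix B 5, and the difference from excitatory neurons was 4.37 and 4.56 within them.

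The gene starts of Acsbg1, Acadm and Hadhb are shown because these enzymes stand for the activating, dehydrogenating and later steps of the pathway. Gene spans given below are those of GENCODE on GRCm38. Each sequence is a RefSeq promoter window on GRCm38.p6, from 250 bases before to 50 after an annotated start, written 5′ to 3′ on the gene's strand. Capitals mark matches on either strand to 3 motifs: CCAAT (the CCAAT box, read ATTGG on the other strand), GGGCGG (the GC box, read CCGCCC) and AGGTCA (the half-site of nuclear receptors, read TGACCT).
Acsbg1, chr9:54661836-54662135, minus strand: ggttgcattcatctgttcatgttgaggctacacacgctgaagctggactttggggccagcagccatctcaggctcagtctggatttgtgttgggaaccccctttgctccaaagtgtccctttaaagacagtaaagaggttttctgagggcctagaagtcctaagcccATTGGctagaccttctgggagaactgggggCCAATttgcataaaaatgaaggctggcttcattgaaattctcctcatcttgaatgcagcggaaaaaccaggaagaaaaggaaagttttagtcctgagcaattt
Acadm, chr3:153944594-153944893, minus strand: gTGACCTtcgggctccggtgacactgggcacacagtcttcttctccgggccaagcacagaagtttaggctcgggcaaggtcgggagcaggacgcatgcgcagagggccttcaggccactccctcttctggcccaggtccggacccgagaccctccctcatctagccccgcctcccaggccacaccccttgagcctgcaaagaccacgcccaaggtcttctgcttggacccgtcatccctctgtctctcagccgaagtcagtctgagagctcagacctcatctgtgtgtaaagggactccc
Hadhb, chr5:30155003-30155302, plus strand: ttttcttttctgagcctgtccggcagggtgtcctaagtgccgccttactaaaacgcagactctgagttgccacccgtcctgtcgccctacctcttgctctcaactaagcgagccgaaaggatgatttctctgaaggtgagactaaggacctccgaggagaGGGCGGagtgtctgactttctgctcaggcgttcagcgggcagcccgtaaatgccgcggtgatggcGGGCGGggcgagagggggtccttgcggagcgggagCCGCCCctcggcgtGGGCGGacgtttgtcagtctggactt
Windows of 7 of the 10 genes were examined. They differ in composition: the Hadhb window has 60.7% G and C and 24 CpG dinucleotides, and the Acsbg1 window 47% and 2, beside a median of 53% G and C over all promoters of the table. A CCAAT box occurred in the windows of Acsbg1 and Cpt1a and in 37.36% of all 32544 promoters. The GC box occurred in those of Acadl, Hadha, Hadhb and Cpt1a and in 35.88% of promoters, and AGGTCA in those of Acadm, Acadvl and Cpt1a and in 16.25%. None of the windows held the direct repeat AGGTCANAGGTCA (0.03995% of promoters), its extended half-site TCAAGGTCA (0.4118%) or TATAAA (13.57%). The extended half-site contains AGGTCA, as does the direct repeat. These matches describe the letters of the windows only.

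The enzyme transcripts were rarer than Dbi, and most cells lacked each of them. Across all 221 cells the 9 enzymes were above the floor in 13 cells (Cpt1a) to 100 cells (Acot13), against 211 for Dbi. All 10 genes met the minimum of 10 cells for the comparison across genes, although Acsbg1 and Cpt1a owed more than 50% of their cells to radial glia (52.4% and 53.8%). Of the 9 enzymes, radial glia had a median of 5 above the floor per cell, with a lowest of 1 and a highest of 9. Eomes-positive cells had a median of 3 (0 to 7), interneurons of 1 (0 to 8) and excitatory neurons of 1 (0 to 4). The interneuron with 8 enzymes also held 7 radial glia markers and had 6727 genes above the floor. Radial glia also had more genes above the floor, and per 1000 such genes the 4 classes held 1.10, 0.663, 0.317 and 0.358 enzyme transcripts. No excitatory neuron reached 5 enzymes, whereas 11 of 19 radial glia did.

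**Figure D2:**
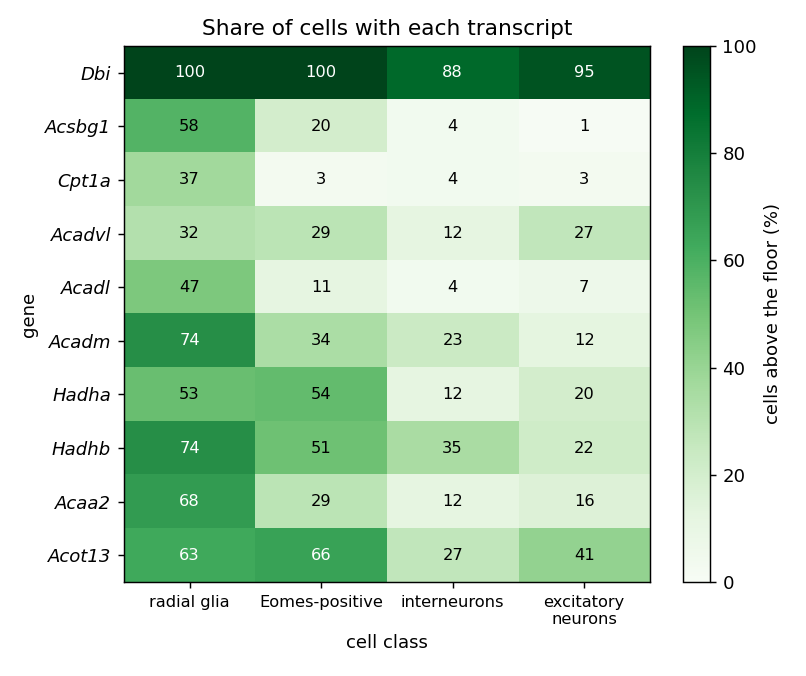
Share of cells (%) in which each of the 10 genes lay above the floor, by cell class (columns: 19 radial glia, 35 Eomes-positive cells, 26 interneurons, 138 excitatory neurons). Dbi is at 100% in radial glia and Eomes-positive cells, 94.9% in excitatory neurons and 88.5% in interneurons. Acsbg1 falls from 57.9% in radial glia to 0.725% in excitatory neurons, and Acadvl is at 31.6% in radial glia and 26.8% in excitatory neurons.

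Activation and mitochondrial entry showed the most restricted transcripts. Acsbg1, a very long-chain acyl-CoA synthetase of the bubblegum family (chromosome 9, 54604877 to 54661870), was detected in 11 of 19 radial glia, with a median of 20.1 TPM and a highest value of 696 TPM. It was found in 7 of 35 Eomes-positive cells, 1 of 26 interneurons and 1 of 138 excitatory neurons (0.725%, exact 95% interval 0.0183 to 3.97%). Of the 21 cells with Acsbg1, 18 were thus radial glia or Eomes-positive, and its log2 difference between radial glia and excitatory neurons was 2.997 ± 0.44, with 2.55 within suffix A and 4.08 within suffix B. Cpt1a encodes the liver form of carnitine palmitoyltransferase 1, the rate-limiting step of mitochondrial entry (chromosome 19, 3322334 to 3385733). It was detected in 7 of 19 radial glia, at up to 166 TPM, in 1 Eomes-positive cell, in 1 interneuron and in 4 excitatory neurons. Its difference between radial glia and excitatory neurons was 1.44 ± 0.35, with 1.75 in pool 1 and 1.14 in pool 2, and 1.81 within suffix A and 0.39 within suffix B. The muscle form, Cpt1b, was above the floor in no radial glia, no Eomes-positive cell, 1 interneuron and 1 excitatory neuron. The brain form, Cpt1c, which has little known transferase activity, was present in radial glia (7 of 19), Eomes-positive cells (11 of 35), interneurons (7 of 26) and excitatory neurons (46 of 138), shares of 26.9 to 36.8%. Its log2 difference between radial glia and excitatory neurons was 0.05 ± 0.44 (limma, adjusted p = 0.974), and it took the opposite sign under 6 of 15 alternatives.

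The acyl-CoA dehydrogenases, which carry out the initial step of each round, differed among themselves. Acadm, the medium-chain enzyme (chromosome 3, 153922357 to 153944632), was found in 14 of 19 radial glia with a median of 63.5 TPM, in 12 of 35 Eomes-positive cells, 6 of 26 interneurons and 17 of 138 excitatory neurons. Acadl, the long-chain enzyme (chromosome 1, 66830839 to 66863277), was present in 9 of 19 radial glia at up to 625 TPM, and in 4 Eomes-positive cells, 1 interneuron and 9 excitatory neurons. These 2 genes were higher in radial glia than in excitatory neurons by 3.31 ± 0.52 and 2.48 ± 0.38 log2 units, and in both pools. The difference of Acadl was 2.03 within suffix A and 3.80 within suffix B. Acadvl, the very long-chain enzyme (chromosome 11, 70010183 to 70015411), did not share that pattern. Detection was 6 of 19 radial glia, 10 of 35 Eomes-positive cells, 3 of 26 interneurons and 37 of 138 excitatory neurons. Its difference was 0.30 ± 0.46, with -0.08 in pool 1 and 0.67 in pool 2. Exons of Acadvl overlap those of Dvl2 on the other strand, and the library kit does not mark strand, so reads of the 2 genes cannot be told apart there.

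Hadha and Hadhb encode the alpha and beta subunits of the mitochondrial trifunctional protein, which carries out the later steps for long chains. The genes lie head to head on chromosome 5, Hadha on the minus strand (30118304 to 30155162) and Hadhb on the plus strand (30155248 to 30184593), with starts 86 bases apart inside the Hadhb window printed above. Hadhb was detected in 14 of 19 radial glia (median 41.2 TPM, highest 207), 18 of 35 Eomes-positive cells, 9 of 26 interneurons and 30 of 138 excitatory neurons. All 10 radial glia of pool 1 had it, between 22.8 and 66.8 TPM, but only 4 of 9 in pool 2. Hadha was present in 10 of 19 radial glia, 19 of 35 Eomes-positive cells, 3 interneurons and 28 excitatory neurons, so its shares in radial glia and Eomes-positive cells were alike. The log2 differences between radial glia and excitatory neurons were 2.17 ± 0.61 for Hadhb and 1.02 ± 0.45 for Hadha. Both subunits were above the floor together in 9 of the 10 radial glia with Hadha, in 9 of 19 Eomes-positive cells with it and in 3 of 28 excitatory neurons with it. Across all 221 cells the 2 transcripts had a Pearson r of 0.02 (log2(TPM + 1)), a description over sparse values. Exons of Hadha overlap those of Garem2 on the other strand, which these libraries cannot separate.

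Thiolysis and hydrolysis, the last steps considered, also differed. Acaa2, the mitochondrial 3-ketoacyl-CoA thiolase (chromosome 18, 74779197 to 74806208), was found in 13 of 19 radial glia with a median of 185 TPM and a highest value of 577 TPM. It was present in 10 of 35 Eomes-positive cells, 3 of 26 interneurons and 22 of 138 excitatory neurons. Its difference between radial glia and excitatory neurons was 3.41 ± 0.53, the largest of the 9 enzymes, and 3.10 ± 0.53 against Eomes-positive cells. This value moved with the suffix: the difference from excitatory neurons was 4.66 within suffix A and 0.58 within suffix B. Acot13, an acyl-CoA thioesterase associated with mitochondria (chromosome 13, 24817948 to 24831540), was the most widespread enzyme. Cells with Acot13 were 12 of 19 radial glia (median 77.1 TPM), 23 of 35 Eomes-positive cells (median 199.8 TPM), 7 of 26 interneurons and 57 of 138 excitatory neurons. It was higher in radial glia than in excitatory neurons by 1.21 ± 0.66 but was 2.14 within suffix A and -1.26 within suffix B. Its direction against Eomes-positive cells differed between the pools, with 0.42 in pool 1 and -2.15 in pool 2.

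**Figure D3:**
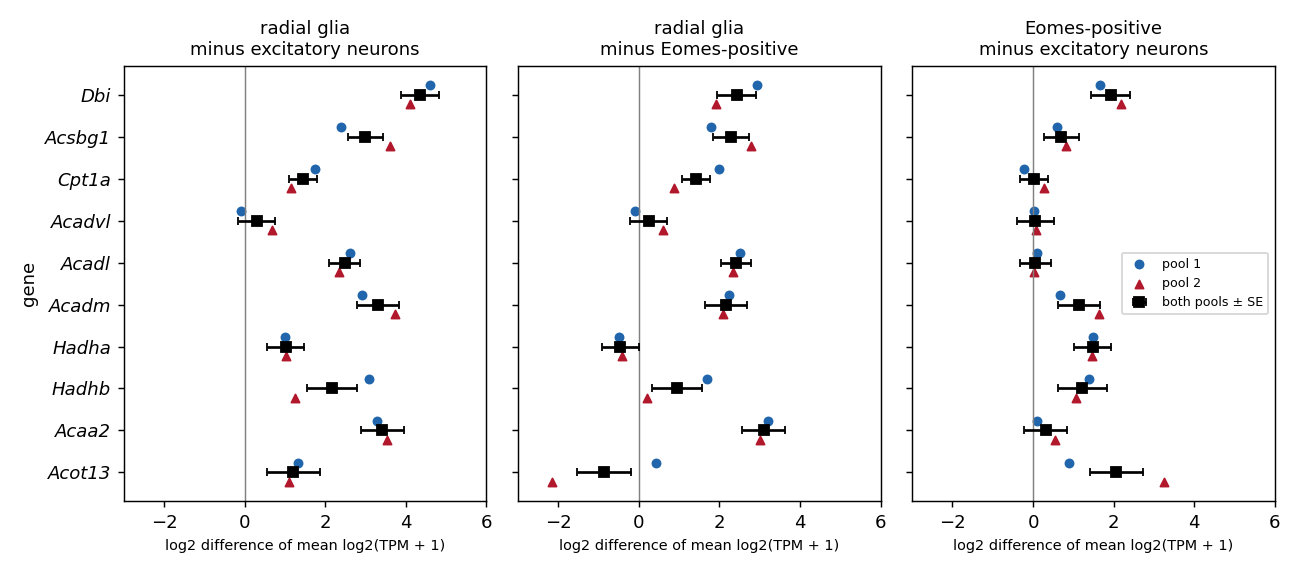
Log2 difference of mean log2(TPM + 1) for the 10 genes in 3 comparisons (squares: both pools with SE from limma; blue circles pool 1; red triangles pool 2). Against excitatory neurons all 10 squares for radial glia lie above 0, from 0.30 (Acadvl) to 4.35 (Dbi), and against Eomes-positive cells 8 do, with Hadha at -0.46 and Acot13 at -0.87.

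Side by side, the 10 genes had a median difference of 2.32 between radial glia and excitatory neurons, with all 10 above 0, and of 1.80 between radial glia and Eomes-positive cells, with 8 above 0. Over all 10726 genes tested the medians were -0.00 and -0.08, and 49.8% and 43.4% lay above 0. The same test called 3.27% of all genes in the former comparison and 0.522% in the latter, where a call is a Benjamini-Hochberg adjusted p below 0.05 in limma and a difference of at least 1 in size. Because the genes were chosen on such values, nothing is read from these shares. Both comparisons share the radial glia. Within suffix B the differences from excitatory neurons were below 0 for Acadvl (-1.39), Hadha (-0.06) and Acot13 (-1.26), from 5 radial glia. Suffix and class cannot be separated further with so few cells.

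Eomes-positive cells had more Dbi than excitatory neurons in both pools. The choice of the 10 genes had used the levels of both kinds of cell, so these differences too are given as a description, with no test. Dbi differed by 1.93 ± 0.48, with 1.67 in pool 1 and 2.19 in pool 2. Within suffix A the Dbi difference was 2.70, and within suffix B it was 0.79. Acot13 differed by 2.07 ± 0.66 and Hadha by 1.48 ± 0.45. Those of Cpt1a, Acadvl and Acadl were 0.02, 0.05 and 0.06, and all 10 lay above 0, from which nothing is read.

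Between interneurons and excitatory neurons no difference in these transcripts passed the test. None of the 10 genes was called with limma, and none had an unadjusted p below 0.05, while 0.382% of all genes were called. Excitatory neurons had entered the choice of the genes, and Cpt1a met the minimum of 10 cells only through radial glia, so that the count of 0 is not read as evidence of equal levels. The differences ran from -0.81 (Acot13) to 0.62 (Hadhb), and that of Dbi was 0.05 ± 0.48, with -0.71 in pool 1 and 0.81 in pool 2. This comparison shares the excitatory neurons with those above. With 2 pools per class, an exact permutation test of a single gene cannot give a two-sided p below 0.333, so the tests rest on the spread estimated across genes.

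Dbi went with the number of radial glia markers across all cells and among Eomes-positive cells. Its Pearson r with that number was 0.52 over the 221 cells, 0.63 over the 35 Eomes-positive cells and 0.31 over the 26 interneurons. It was 0.21 over the 19 radial glia and 0.06 over the 138 excitatory neurons. All are given as a description. By the gates excitatory neurons hold at most 4 markers and radial glia at least 5, so these values are not compared between classes. Over all cells with 0, 1, 2, 3 and 4 of the 8 markers the median of Dbi was 531, 492, 601, 731 and 758 TPM. With 5, 6, 7 and 8 markers it was 4625, 7404, 5269 and 11798 TPM. As a ratio, the largest step between neighbouring medians was thus that from 4 to 5 markers, which is also the limit of the radial glia gate. Among Eomes-positive cells, 15 held 5 or more radial glia markers, and their median Dbi was 4661 TPM, with 6016 in pool 1 and 4346 in pool 2. The other 20 had a median of 906 TPM, with 839 and 914 in the 2 pools. These 2 sets were formed after the marker counts had been seen and are described only. Acsbg1 was present in 6 of the 15 and 1 of the 20, Acadl in 4 and 0, and Acadm in 9 and 3. Hadha was present in 8 and 11, and Cpt1a in 1 and 0. Acadvl was seen in 4 of the 15 and 6 of the 20, and Acaa2 in 5 and 5. Hadhb was seen in 10 and 8, and Acot13 in 12 and 11. Detection was broader in the 15 cells, with 4635 genes by median against 4067 in the 20. These enzyme counts were not adjusted for that. Excitatory neurons with 0, 1, 2, 3 and 4 markers had Dbi medians of 531, 481, 540, 461 and 914 TPM. Eomes-positive cells with 1, 2, 3 and 4 markers had medians of 773, 1115, 1106 and 839 TPM, also without a steady rise. The 3 interneurons with 5 or more radial glia markers, all of pool 2, had Dbi at 908, 2765 and 8093 TPM. Each of the 9 enzymes was present in 1 of these 3 cells. The cell with 6727 genes above the floor held 8 of them. Of the other 23 interneurons, 0 had Acsbg1, Cpt1a or Acadl, and 2 each had Acadvl, Hadha and Acaa2. Acadm was in 5, Acot13 in 6 and Hadhb in 8.

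**Figure D4:**
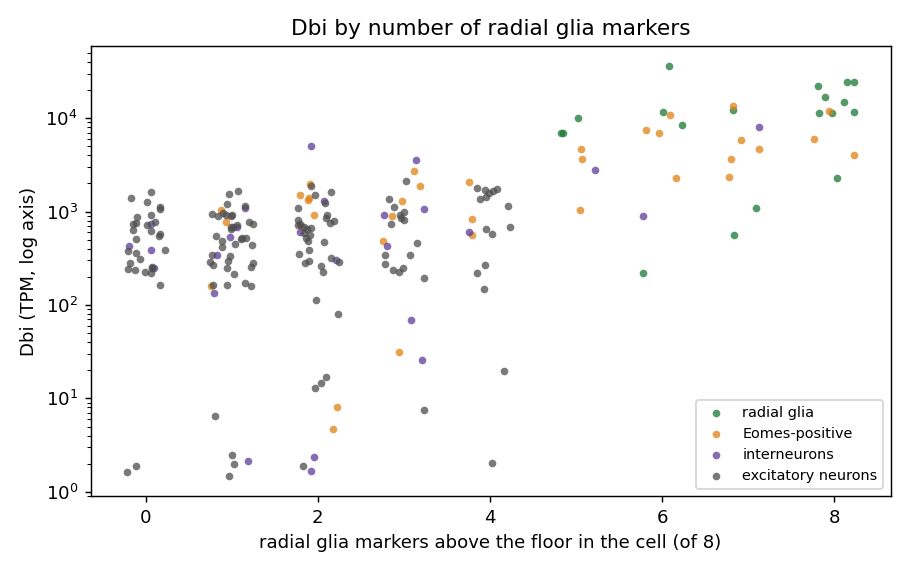
Dbi (TPM, log axis) of each cell against its number of radial glia markers above the floor (of 8), coloured by class, with small horizontal shifts for legibility. Medians stay between 492 and 758 TPM from 0 to 4 markers and lie at 4625 TPM or more from 5 markers on, where Eomes-positive cells and radial glia overlap.

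Within the radial glia class Dbi ran from 218 to 35849.6 TPM, with neuronal transcripts higher in cells of low Dbi. The 2 cells with the lowest Dbi, 218 and 561 TPM, had the 2 highest Neurod6 values of the class, 3111 and 3891 TPM. The 8 radial glia with less than 100 TPM of Neurod6 had a median Dbi of 19333 TPM (lowest 6899), and the 11 with more had a median of 10083 TPM (lowest 218). Enzyme transcripts above the floor numbered 6.5 and 4 by median in these sets. Across the 19 cells Dbi had a Pearson r of -0.70 with the number of excitatory neuron markers above the floor. Whether these cells are intermediate states or hold RNA of more than 1 cell was not tested.

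Dbi and the enzymes also varied together from cell to cell within radial glia and within Eomes-positive cells, but not within excitatory neurons. Across the 19 radial glia log2 Dbi had a Pearson r of 0.61 (Spearman's rho 0.54) with the number of enzyme transcripts above the floor, and across the 35 Eomes-positive cells 0.50 (0.50). Across the 26 interneurons r was 0.30 (0.19), and across the 138 excitatory neurons it was -0.05 (-0.06). The number of genes above the floor varied within a class, from 2691 to 5907 in radial glia. In radial glia the number of enzymes had an r of 0.52 with the number of genes above the floor, and Dbi one of 0.14. In Eomes-positive cells these values were 0.41 for the enzymes and 0.34 for Dbi, so both went with the number of genes above the floor there. The correlations are given as a description. Among single enzymes in radial glia, Acsbg1 had the highest r with Dbi (0.62), Acadm had 0.49, Acadl 0.48 and Acot13 0.45, and Acadvl had -0.08.

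**Figure D5:**
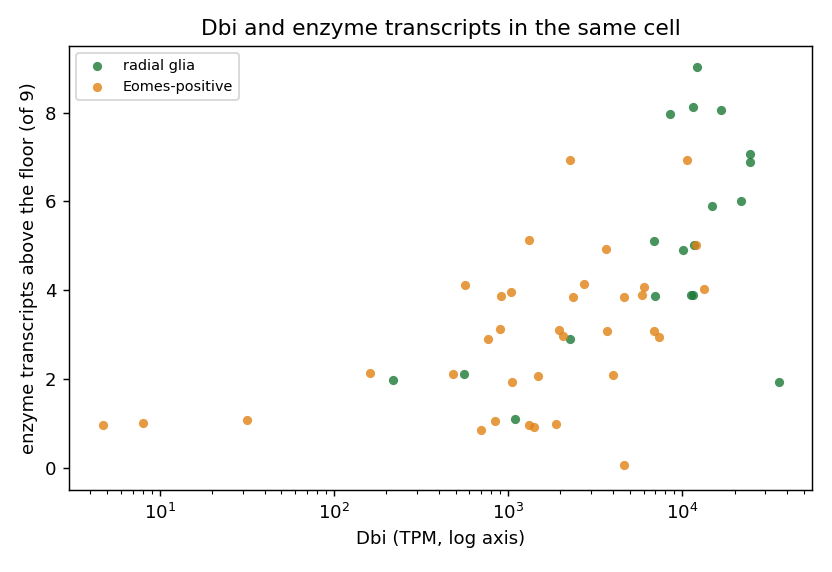
Number of the 9 enzyme transcripts above the floor against Dbi (TPM, log axis) in the 19 radial glia and 35 Eomes-positive cells, with small vertical shifts for legibility. The points rise together (Pearson r of 0.61 and 0.50 with log2 Dbi), and the 2 radial glia with the least Dbi hold 2 enzymes each, as does the one with the most.

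Over all cells, the 10 genes most like Dbi included none of the 9 enzymes. Of 9059 genes detected in 22 cells or more, ranked by the lower of the 2 pools' Pearson r with Dbi over all cells of a pool, Hopx stood first (0.52) and Fabp7, the brain fatty acid binding protein, next (0.52). Hopx encodes a homeodomain protein named in the study's title. The remaining 8 of the first 10 were Hes5, Zfp36l1, Mfge8, Gpx8, Sox9, Ddah1, Notch1 and Gng12, with values from 0.50 down to 0.43. Hes5, Mfge8 and Sox9 are among the markers that define the radial glia class. Within the 19 radial glia the r with Dbi was 0.90 for Fabp7 and 0.58 for Hopx. The enzymes ranked lower, with Acadl at place 52, Hadhb at 160, Hadha at 163, Acadm at 546, Acaa2 at 834, Acot13 at 3661 and Acadvl at 4891. Acsbg1 and Cpt1a were in too few cells to be ranked.

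Other genes of fatty acid metabolism were taken from lists of 88 symbols, of which 85 were in the table and 64 could be tested; Acbd5, Etfb and Ehhadh were not analysed here. In radial glia against excitatory neurons 5 of the 64 were called higher with limma and 1 lower, beside 2.64% and 0.634% of all genes. The largest difference was that of Fabp7, 6.03 ± 0.66 (adjusted p = 0.0029), with medians of 19330 TPM in radial glia and 392 TPM in excitatory neurons. Acot1, a thioesterase, was higher by 2.74 ± 0.62 (adjusted p = 0.0363), but reads of its near-identical neighbours may be split among them. Crot, the peroxisomal carnitine octanoyltransferase, was higher by 2.32 ± 0.53 (adjusted p = 0.0392). Acss1, the mitochondrial acetyl-CoA synthetase, was higher by 1.97 ± 0.35 (adjusted p = 0.0144). Decr1, which removes double bonds during oxidation of unsaturated fatty acids, was higher by 1.41 ± 0.33 (adjusted p = 0.0438). The count of 6 fell to 1, Fabp7 alone, with suffix A cells only or with cells of 3000 to 5000 genes only. It fell to 0 when the radial glia gate was lowered to 4 of 8 markers, and rose to 11 without the radial glia with 100 TPM or more of Neurod6.

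By step, 1 of the 12 tested genes of mitochondrial oxidation was called (Decr1), 11 of the 12 were above 0, and the median difference was 1.46. Among those not called, Eci2, an isomerase of unsaturated chains, had 2.89 ± 0.74 (adjusted p = 0.0578) and Hadh, the short-chain hydroxyacyl-CoA dehydrogenase, 2.03 ± 0.59 (adjusted p = 0.0893). Peroxisomal oxidation had 0 of 11 called and a median of 0.23, with 2 of 11 at an unadjusted p below 0.05 in limma. Mitochondrial oxidation had 7 of 12 at such a p, and all genes tested had 1798 of 10726. The carnitine shuttle had 1 of 6 called and a median of 0.54, with 2 of 6 at such a p. Medians lay below 0 for uptake and activation, for acyl-CoA binding and thioesterases, and for Dbi receptors. Uptake and activation had 2 of 11 called and -0.013, with 6 of 11 at such a p. Acyl-CoA binding and thioesterases had 1 of 8 called and -0.12, with 3 of 8 at such a p. Dbi receptors had 1 of 6 called, as lower, and -0.55, with 2 of 6 at such a p. Regulators and ketone body genes had 0 of 10 called and a median of 0.22, with 2 of 10 at an unadjusted p below 0.05. As a reference, 15 genes of the citrate cycle and of mitochondrial import and transport had 0 called, 0 with an unadjusted p below 0.05 and a median of -0.03.

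Not all genes that bind or cleave acyl-CoA lay higher in radial glia. Acot7, the main acyl-CoA thioesterase of neurons, was above the floor in 78.99% of the 138 excitatory neurons (median 313 TPM) and in 10 of 19 radial glia (median 2.05 TPM, near the floor). Its difference was -3.02 ± 0.93 and did not pass the test (adjusted p = 0.11). Acbd3, Acbd4 and Acbd6, other proteins with an acyl-CoA-binding domain, had -0.14, -0.10 and -1.004. Among possible receptors of Dbi peptides, Tspo, the mitochondrial translocator protein, was detected in 2 of 19 radial glia and 6 of 138 excitatory neurons. Gabra2, a GABA-A receptor subunit, was lower in radial glia than in excitatory neurons by -2.89 ± 0.60 (adjusted p = 0.0287) and in interneurons by -3.83 ± 0.60 (adjusted p = 0.0153). It was above the floor in 124 of 138 excitatory neurons, 11 of 19 radial glia and 11 of 26 interneurons.

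In radial glia against Eomes-positive cells Fabp7 was the 1 gene of the 64 called with limma, higher by 3.47 ± 0.66 (adjusted p = 0.0454). An unadjusted p below 0.05 was found for 14 of the 64, beside 1422 of all 10726 genes. The call of Fabp7 was lost under 9 of 15 alternatives, its adjusted p running from 0.024 to 0.734 over all of them. Eomes-positive cells against excitatory neurons gave 0 calls among the 64, with 12 at an unadjusted p below 0.05, and limma called 0 of all 10726 genes there (0%), with 661 at an unadjusted p below 0.05. When each class was weighted by its number of cells, 99 genes were called. Interneurons against excitatory neurons gave the single call of Gabra2, which was lost under 4 of 15 alternatives (highest adjusted p 0.267). These comparisons share cells with each other, and none tests whether 1 difference is larger than another.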

How the data were processed

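Single cells were captured on the Fluidigm C1 system, cDNA was made with SMARTer v4 and libraries with Nextera XT, per the labels' protocols. The deposited values are TPM for 221 cells, which the authors obtained on the mm10 build; Cufflinks 2.2.1, TopHat2 2.0.14 and, besides, Bowtie2 2.2.6 are named in the submitters' processing notes; the annotation and the origin of the floor are not given in the sources used here. A second deposited table was not used here. Scaling to a fixed total means that a very abundant transcript such as Dbi lowers the TPM of others in the same cell, and a transcript at the floor may be present below detection.

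Cells were classed in this order by transcripts above the floor: set aside with 3 of 5 endothelial, microglial or mesenchymal markers; Eomes-positive with Eomes; interneuron with 3 of 6 markers; radial glia with 5 of 8 (Pax6, Sox2, Sox9, Hes1, Hes5, Slc1a3, Nes, Mfge8); excitatory neuron with 3 of 6. No doublet caller was run. Mean log2(TPM + 1) per class and pool (8 profiles, 4 residual degrees of freedom) entered limma 3.58.1 in R 4.3.3 (trend, robust, two-sided), after a check on simulated data. Genes detected in 10 cells or more entered, and gate markers and the 92 spike-ins were left out. Cells are not replicates, so n is the number of pools. The members and lists were chosen with earlier results of these data known. Named are all 10 members, called genes of the lists, the partners Cpt1b, Cpt1c, Acot7 and Tspo, and the 10 genes most like Dbi; Eci2, Hadh, Acbd3, Acbd4 and Acbd6 were added after their values were seen. Classes of a pool come from the same animals, which pairs them by design; the deviations of the pools had an r between -0.0134 and 0.0852 for the 6 pairs of classes. Alternatives covered the pseudocount, floor, filters, gates, suffix, depth, weights, pool block and cells left out. One further promoter window is not reported here.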

Additional observations from a re-analysis of the deposited data

Results flagged for a closer look

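Dbi stood at 7584 TPM in the 1 cell that the microglia gate set aside, a cell outside every comparison. Its mean was 625 TPM in excitatory neurons. Medians of Dbi were 11486 TPM in radial glia and 4661 TPM in Eomes-positive cells with 5 or more radial glia markers. The set-aside cell had Eomes at 10.2 TPM. It had 5 of 5 microglial markers, 7 of 8 radial glia markers and 5 of 5 oligodendrocyte precursor markers. It also had 6271 genes above the floor and 5 of the 9 enzymes. Whether it holds RNA of more than 1 cell was not tested. Among 20 groups of 9 or 10 cells examined (the 10 genes in the radial glia of each pool), no single cell was flagged as standing apart. The highest Cpt1a value in the radial glia of pool 2 was nevertheless 146.9 TPM, beside a next value of 18.4 TPM.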

How the results depend on the processing

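Of 20 differences of the 10 genes that involve radial glia, 16 kept 1 sign under all alternatives other than leaving out a pool, and Dbi ran from 2.65 to 5.43 in radial glia minus excitatory neurons and from 0.68 to 3.50 in radial glia minus Eomes-positive cells. The other 4 were Acadvl, -0.0024 against excitatory neurons and -0.13 against Eomes-positive cells with the log2 of the mean, and, against Eomes-positive cells, Hadha at 0.21 without radial glia high in Neurod6 and Hadhb at -0.19 with suffix A. The pool as a replicate block changed no count. Pathway genes called stayed at 6 in radial glia against excitatory neurons and 1 in radial glia against Eomes-positive cells. They stayed at 0 in Eomes-positive cells against excitatory neurons, as did the 10 genes in interneurons against excitatory neurons. The 6 pathway genes of radial glia against excitatory neurons became 3 with no filter, 1 with the log2 of the mean TPM, 0 with a gate of 4 of 8 markers, 2 with Eomes at 50 TPM or more, 1 with suffix A only, 1 with 3000 to 5000 genes per cell, 11 without radial glia high in Neurod6, and 2 without cells with astrocyte or oligodendrocyte precursor markers (chosen after seeing the data). The 1 gene of radial glia against Eomes-positive cells became 0 with the floor subtracted, no filter, the log2 of the mean, the gate of 4, suffix A, 3000 to 5000 genes, without cells with Xist and a Y-linked transcript, and without the astrocyte-marker cells, and 4 without radial glia high in Neurod6. With profiles weighted by cells, Eomes-positive cells against excitatory neurons gave 5 pathway genes. The cause was not tested. Signs also changed in other values. Cpt1c in radial glia minus excitatory neurons was -0.21 and -0.10 with gates of 4 and 6, -0.074 with Eomes at 50 TPM, -0.75 with suffix A, -0.47 with 3000 to 5000 genes and -0.29 without radial glia high in Neurod6. In Eomes-positive cells minus excitatory neurons, Cpt1a was -0.00045 with pseudocount 10, -0.25 with the log2 of the mean, -0.14 with Eomes at 50 TPM, -0.021 with suffix A and -0.0028 weighted. There Acadvl was -0.10 without cells with Xist and a Y-linked transcript, Acadl -0.070 with 3000 to 5000 genes, and Acaa2 -0.39 with the log2 of the mean and -0.36 with 3000 to 5000 genes. In interneurons minus excitatory neurons, Dbi was -0.033 with the floor subtracted, -0.0098 with the gate of 6, -0.069 weighted and -0.094 without cells with Xist and a Y-linked transcript. There Acadl was -0.014 with pseudocount 10, -0.075 with the floor subtracted, -0.52 with the log2 of the mean and -0.020 weighted, and with suffix A Hadha was 0.10 and Acaa2 0.64. Read numbers are unknown, so a transcript at the floor is not shown to be absent.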
